A study of Drosophila melanogaster with 6 samples.

Results

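The 10 genes described here encode the core of the contractile ring and the Rho1 pathway that drives it: pbl, tum, pav, Rho1, Rok, dia, sqh, zip, scra and pnut. They were chosen by symbol, as the rows of the count table that carry these names, and are 10 of 17493 genes counted. RNA was measured in 6 poly(A)-selected libraries from Drosophila melanogaster larvae of the strain y1 w67c23. All were feeding larvae of the early 3rd instar with no further mutation or treatment. There were 3 biological replicates of salivary glands (SG), whose cells the submitters class as endoreplicating, and 3 of brains together with imaginal discs (B-D), classed as mitotic. Both tissues were dissected from the same animals, and B-D pools several organs, with neurons that no longer divide among its cells.

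During cytokinesis the centralspindlin complex, made of a kinesin and a GTPase activating protein, gathers at the middle of the spindle and recruits the exchange factor Pebble, which loads Rho1 with GTP at the cortex. Active Rho1 turns on the formin Diaphanous, which builds unbranched actin filaments, and the kinase Rok, which phosphorylates the regulatory light chain of myosin II, while Anillin and the septins tie the ring to the membrane. Endocycling cells such as those of the larval salivary gland copy their DNA without mitosis or cytokinesis, but Rho1, its kinase and myosin II also act outside division, in cell shape, adhesion and secretion.

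The libraries held between 45023997 and 56583711 counts. Levels are given as CPM, each count taken relative to its library's total after that total was rescaled by edgeR's trimmed mean of M values, or TMM (TMM-scaled CPM), and the lowest level that 3 counts allow, taken here as the floor, was between 0.0364 and 0.0968 CPM, far under every value of the 10 genes. This floor covers counting error only. Marker genes matched the labelled tissues in part. Of 15 salivary gland markers, 10 were called higher in SG and none lower, with the summed level at 19370 to 86091 CPM in SG against 297 to 869 CPM for B-D. All 12 neuron markers and all 12 imaginal disc markers were called lower in SG, with sums of 234 to 560 CPM against 4092 to 4955 CPM in B-D for neurons and of 232 to 287 CPM against 826 to 871 CPM for discs. All 10 fat body markers were called higher in SG, where they summed to 192064 to 285771 CPM against 1149 to 4849 CPM in B-D, although fat body is no part of the label. No marker was at 0 in all libraries of either tissue.

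As a set the 10 genes did not move one way. With SG set against B-D by edgeR's quasi-likelihood test, 5 were called higher in SG (pbl, dia, sqh, zip and Rok), 4 were called lower (scra, pnut, tum and pav) and Rho1 was called neither. Calls required a log2 fold change (SG over B-D) of 0.5 or more in size and a p adjusted over 11369 genes tested that did not exceed 0.05. All 10 genes passed the filter on low counts. Across all genes tested, 34.5% were called higher and 35.3% lower, so such calls were common in this comparison. The median log2 fold change was 0.44 over the 10 genes and -0.03 over all genes tested. The 3 SG values lay wholly above or wholly below the 3 B-D values for each of the 10 genes, which was also so for 81.2% of genes tested. In these bulk samples, fewer cells of a type and less RNA per cell cannot be told apart, and p-values measure only the spread between these samples.

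**Figure D1:**
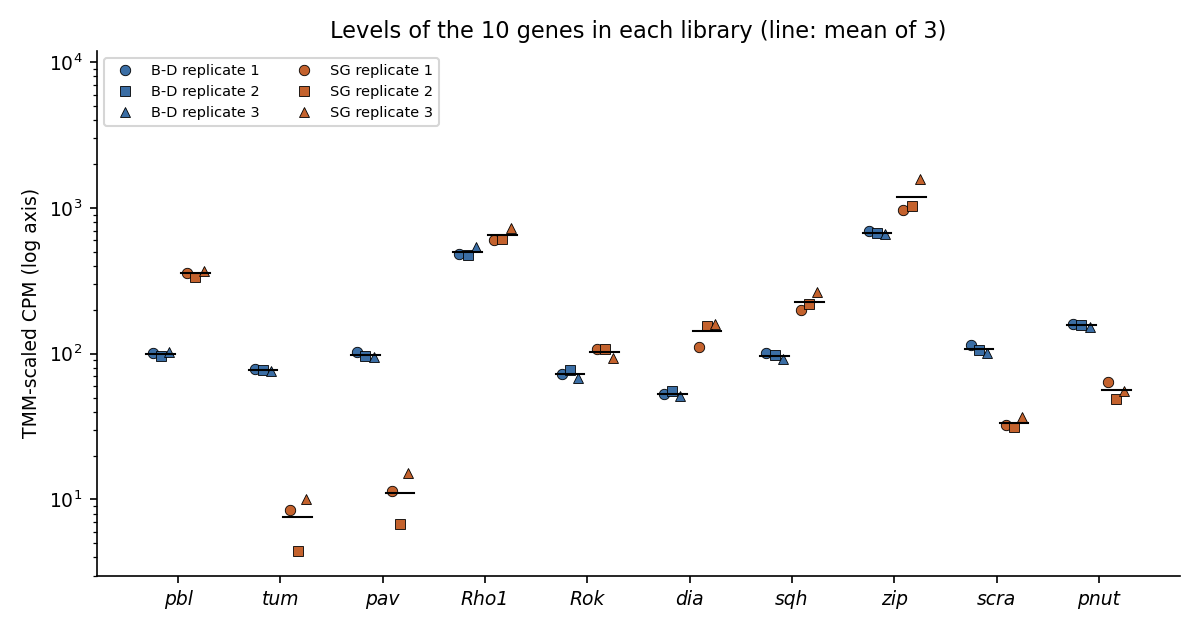
Level of each of the 10 genes in each library, in TMM-scaled CPM on a log axis, with blue symbols for B-D, orange symbols for SG, a symbol shape for each replicate number and a line at the mean of 3 libraries. The SG points of pbl, dia, sqh and zip lie above those of B-D, while those of tum and pav lie far below, from 4.42 to 15.2 CPM against 76.2 to 103 CPM.

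Upstream of Rho1, pbl and tum, whose products act together at the spindle midzone, went in opposite directions. The gene pbl (FBgn0003041, chromosome 3L, 7896109 to 7911954, minus strand of build BDGP6.54) encodes the RhoGEF Pebble. Its level was 101, 96.0 and 103 CPM in the B-D libraries and 359.5, 337 and 371 CPM in the SG libraries. Every SG library was thus more than 3-fold above the B-D mean, and the SG replicates were close to each other, with a coefficient of variation of 4.87%. The mean rose 3.56-fold from 100.003 ± 3.72 to 355.8 ± 17.3 CPM (SD, n = 3) (log2 fold change 1.83 ± 0.09 SE, 95% interval 1.62 to 2.04, adjusted p = 3.36e-05). Of the genes tested, 86.96% had a lower log2 fold change.

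The gene tum (FBgn0086356, chromosome 2R, 13856150 to 13858689, minus strand) encodes the GTPase activating subunit of centralspindlin. It was counted at 79.0, 77.0 and 76.2 CPM in B-D and at 8.47, 4.42 and 10.01 CPM in SG, from 314, 137 and 345 counts. SG replicate 2 was the lowest library and carried less than the other two SG libraries, but all 3 were far from any B-D value. The mean fell from 77.4 ± 1.41 to 7.63 ± 2.89 CPM, 10.1-fold lower in SG (log2 fold change -3.34 ± 0.31 SE, 95% interval -4.10 to -2.58, adjusted p = 0.000203).

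Its partner gene pav (FBgn0011692, chromosome 3L, 4242734 to 4246233, plus strand) encodes Pavarotti, the kinesin of the same complex. It was at 103, 96.6 and 95.7 CPM in B-D and at 11.4, 6.75 and 15.2 CPM in SG, with the same library lowest. The fall was 8.83-fold (log2 fold change -3.14 ± 0.30 SE, 95% interval -3.88 to -2.40, adjusted p = 0.000229). Both subunits of the complex were therefore low together: per length, tum stood to pav at a mean log2 ratio (± SD, n = 3) of 0.10 ± 0.03 for B-D libraries and -0.10 ± 0.10 for SG libraries. That ratio differed by -0.20 on the log2 scale, with no overlap between tissues. The ratio of pbl to tum moved much further, from 0.526 in B-D to 20.0 in SG, a difference of 5.25 on the log2 scale.

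Rho1 (FBgn0014020, chromosome 2R, 16102687 to 16107229, plus strand), the small GTPase at the centre of the pathway, changed little. Its values were 484, 473 and 537 CPM in B-D and 603, 616 and 725 CPM in SG. The SG values were above the B-D values, but the lowest SG and the highest B-D library were near each other. The log2 fold change of 0.38 ± 0.11 SE (95% interval 0.10 to 0.66, adjusted p = 0.0228) stayed under the 0.5 needed for a call. Rok (FBgn0026181, chromosome X, 16624012 to 16637414, minus strand) encodes a kinase, an effector of Rho1 that phosphorylates myosin. It was at 72.5, 77.1 and 68.4 CPM in B-D and at 108, 108 and 93.2 CPM in SG. Its log2 fold change of 0.51 ± 0.10 SE (95% interval 0.27 to 0.74, adjusted p = 0.00336) was just past the threshold, and the call was lost, with log2 fold changes of 0.478 and 0.495, without SG replicate 1 and without SG replicate 2. Of its exon bases, 3.76% overlap an antisense RNA gene, asRNA:CR45001, whose reads cannot be told apart here, and none of the other 9 genes shares exon sequence with another gene.

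Of the genes for actomyosin filaments, dia, sqh and zip had higher values in SG. The actin genes Act42A and Act5C did not share this rise in the same edgeR test. Act42A was called lower (log2 fold change -0.87, adjusted p = 0.000691). Act5C was called neither (log2 fold change 0.14, adjusted p = 0.353), and its values overlapped between the tissues. The gene dia (FBgn0011202, chromosome 2L, 20758144 to 20768053, plus strand) encodes the formin Diaphanous. It was counted at 52.9, 55.2 and 51.6 CPM in B-D and at 111, 155 and 160.5 CPM in SG, where replicate 1 was the lowest. Its mean rose 2.68-fold, from 53.2 ± 1.83 to 142 ± 27.0 CPM (log2 fold change 1.42 ± 0.15 SE, adjusted p = 0.000355).

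The gene sqh (FBgn0003514, chromosome X, 6223061 to 6225140, minus strand) encodes the regulatory light chain of nonmuscle myosin II, the subunit that Rok phosphorylates. Its level was 101, 97.6 and 92.3 CPM in B-D and 198, 218 and 267 CPM in SG. The lowest SG library was thus well above the highest B-D library. The rise was 2.35-fold (log2 fold change 1.23 ± 0.13 SE, 95% interval 0.91 to 1.55, adjusted p = 0.000325).

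The gene zip (FBgn0265434 in the count table, chromosome 2R, 24990570 to 25011965, minus strand) encodes the heavy chain of the same myosin. It stood at 699.9, 678 and 659 CPM in B-D and at 969, 1032 and 1593 CPM in SG. SG replicate 3 was far above the other SG libraries, and the coefficient of variation in SG was 28.7% against 4.87% for pbl. The mean went from 679 ± 20.4 to 1198 ± 343 CPM (log2 fold change 0.82 ± 0.21 SE, 95% interval 0.31 to 1.33, adjusted p = 0.0116). Without SG replicate 3 it was still called higher, at 0.58.

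Mlc-c, the essential light chain that completes this myosin, is named here whatever its value. Its mean rose from 158 to 530.4 CPM (log2 fold change 1.75 ± 0.15 SE, adjusted p = 0.000146). All 3 subunit genes of myosin II were therefore called higher in SG, by unequal amounts. Per length, zip fell against Mlc-c by 0.95 on the log2 scale, and sqh by 0.52, while sqh rose against zip by 0.44, each with no overlap between tissues.

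The genes for the scaffold of the ring were both called lower. The gene scra (FBgn0261385, chromosome 2R, 7590119 to 7595242, plus strand) encodes Anillin, which binds actin, myosin and septins. It was counted at 114, 107 and 102 CPM in B-D and at 32.5, 31.5 and 36.6 CPM in SG. Every SG library held between 29.2% and 34.0% of the B-D mean, so the replicates were close. The fall was 3.21-fold (log2 fold change -1.68 ± 0.10 SE, 95% interval -1.92 to -1.45, adjusted p = 4.83e-05).

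The gene pnut (FBgn0013726, chromosome 2R, 8237271 to 8240297, plus strand) encodes the septin Peanut. It was at 161, 158 and 152 CPM in B-D and at 63.6, 49.0 and 55.5 CPM in SG. Its fall was 2.81-fold (log2 fold change -1.49 ± 0.11 SE, 95% interval -1.77 to -1.21, adjusted p = 0.000108). Both scaffold genes thus fell less than the centralspindlin genes, whose intervals lie wholly below theirs, though the difference between these fold changes was not tested.

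**Figure D2:**
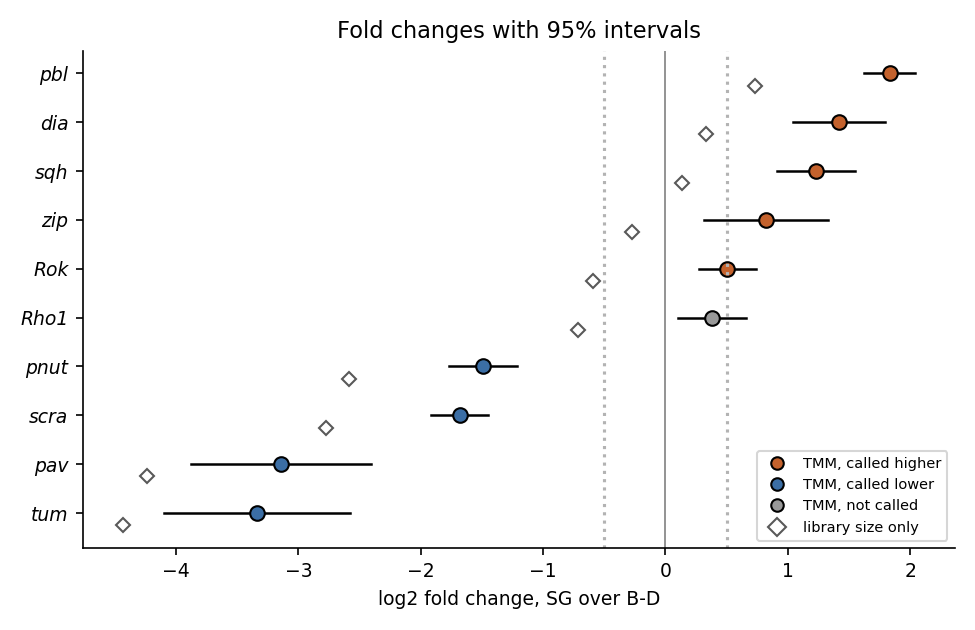
Log2 fold change of each gene (SG over B-D) with its 95% interval from the edgeR fit, coloured by call, with dotted lines at the threshold of 0.5 in either direction and open diamonds for the same fit scaled by library size only. Filled points run from -3.34 for tum to 1.83 for pbl, and each diamond lies to the left of its point, so that zip, Rok and Rho1 cross 0.

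The directions of the smaller rises rested on the scaling. TMM factors of the B-D libraries lay between 1.46 and 1.47 and those of the SG libraries between 0.664 and 0.6997. Scaling by library size alone moved the median log2 fold change of all genes by -1.10, leaving 1588 genes called higher and 7111 lower, or 18.3% of calls higher against 49.5%. On that scale pbl was still called higher, at 0.73 (adjusted p = 0.000321). The values of dia (0.33, adjusted p = 0.116), sqh (0.14, adjusted p = 0.392) and zip (-0.27, adjusted p = 0.290) were past no threshold, and Rho1 (-0.71) and Rok (-0.59) were called lower, which is opposite in sign. All 10 genes moved down by nearly the shift of the median. The falls of scra, pnut, tum and pav were called on both scales, and were deeper on the second, between -4.44 and -2.59.

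Ratios of one gene to another within a library do not depend on that scaling. A total of 10 ratios were formed per length of exon, and 9 of them did not overlap between the tissues. Such separation was common, since 81.2% of single genes tested did not overlap either, and the share over other pairs of genes was not computed. The exact two-sided permutation test of 3 libraries against 3 can go no lower than p = 0.1, and gave that value for these 9 (adjusted over the 10 ratios, p = 0.111). Against Rho1, pbl rose from a ratio of 0.0830 to 0.227, a difference of 1.45 on the log2 scale, and dia by 1.02. Against the same gene scra fell by 2.06 and pnut fell by 1.87 on the log2 scale, with scra at 1 part in 8.62 of Rho1 in B-D and 1 part in 36.0 in SG. Rok and Rho1, kinase and activator, kept a similar proportion, with log2 ratios of -4.41 ± 0.18 in B-D and -4.28 ± 0.27 in SG that overlapped (exact permutation p = 0.5).

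The order of the genes by level per length changed between the tissues. In B-D the order in CPM per kb of exon was Rho1 (209), zip (93.8), sqh (61.4), pnut (51.9), tum (32.9), pav (30.6), scra (24.2), pbl (17.3), Rok (9.84) and dia (7.92), and no neighbours in this order overlapped in their 3 libraries, although Rok and dia changed places when the longest transcript was taken as the length. In SG, Rho1 (272), zip (165) and sqh (144) again led, followed by pbl (61.5), dia (21.2), pnut (18.5), Rok (13.97), scra (7.54), pav (3.47) and tum (3.24). There the ranges of zip and sqh, of dia and pnut, and of pav and tum overlapped, so these pairs were not separated. Pebble's gene went from place 8 to place 4, and tum from place 5 to place 10. Among all genes tested, pbl had a level per length above 73.74% of genes in B-D and 88.49% in SG, while tum went from 87.25% to 39.30%.

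**Figure D3:**
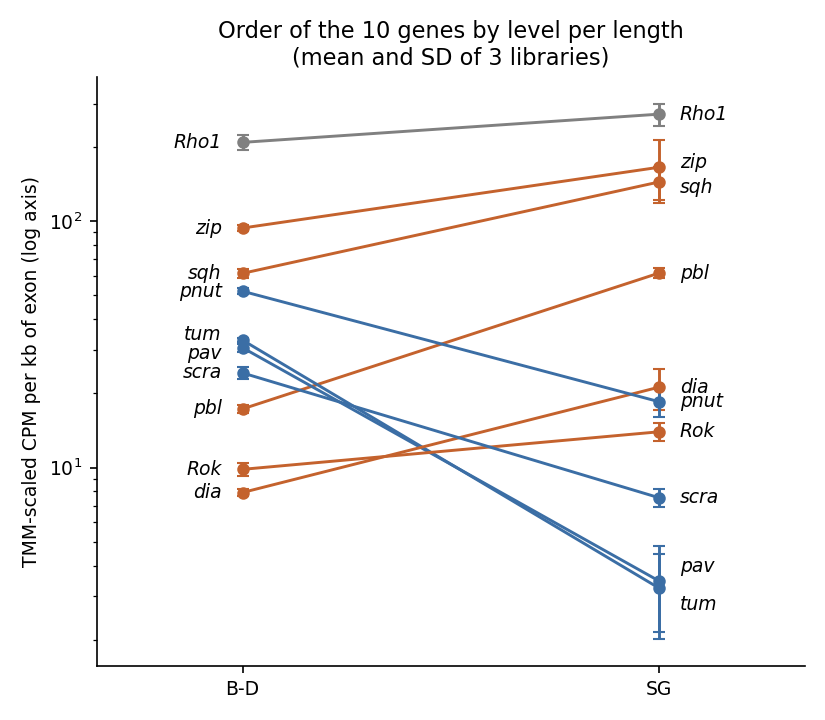
Mean level per kb of exon of each gene in B-D and in SG, in TMM-scaled CPM per kb on a log axis, with bars of 1 SD over 3 libraries and a line joining the means, coloured orange where called higher, blue where called lower and grey where neither. The line of pbl rises from 17.3 to 61.5 and crosses those of pnut, tum, pav and scra, which fall.

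Setting each gene beside its own family showed how far the makeup of the family moved. Pebble's gene made up 8.79 ± 0.68% of the summed counts per kb of 14 exchange factor genes of B-D libraries and 32.7 ± 1.52% of SG libraries (SD, n = 3), and was the highest of them in each SG library, while RhoGEF4, first in B-D at 14.4%, was at 1.17% in SG. Without siz, an Arf exchange factor left out after the data were seen, it made up 9.72 ± 0.72% and 36.0 ± 1.52%. Among 18 genes of GTPase activating proteins, tum held 11.6 ± 0.32% in B-D, where its range overlapped that of RhoGAPp190 (11.4%), and 1.49 ± 0.52% in SG. Graf (13.2%), conu (12.8%) and RhoGAP68F (12.8%) were high in SG and not separated. The share of dia among 6 formin genes rose from 14.6 ± 0.09% to 34.1 ± 4.01%, second to Frl, which held 39.9% in B-D and 43.0% in SG. The formin DAAM went from 16.4% to 1.07%.

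Among the 5 septin genes, pnut held 30.2 ± 0.32% in B-D and 14.7 ± 1.06% in SG, while Septin2 went from 30.7% to 60.3%. In the edgeR test Septin2 was called higher in SG (log2 fold change 0.53, adjusted p = 0.00765). By library size only it was called lower (-0.57), and 13.8% of its exon bases overlap a gene on the other strand. Septin1 (-0.63), Septin4 (-4.15) and Septin5 (-3.32) were called lower. The exact permutation test of the family shares gave p = 0.1 for pbl, tum, dia and pnut, the smallest it can give with 3 libraries against 3, and 0.125 adjusted over 5 shares. The share of zip among 12 myosin heavy chains outside muscle, 44.2 ± 1.43% in B-D and 45.2 ± 7.92% in SG, overlapped between the tissues (exact permutation p = 1.0), with SG libraries at 40.9, 40.5 and 54.4%.

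**Figure D4:**
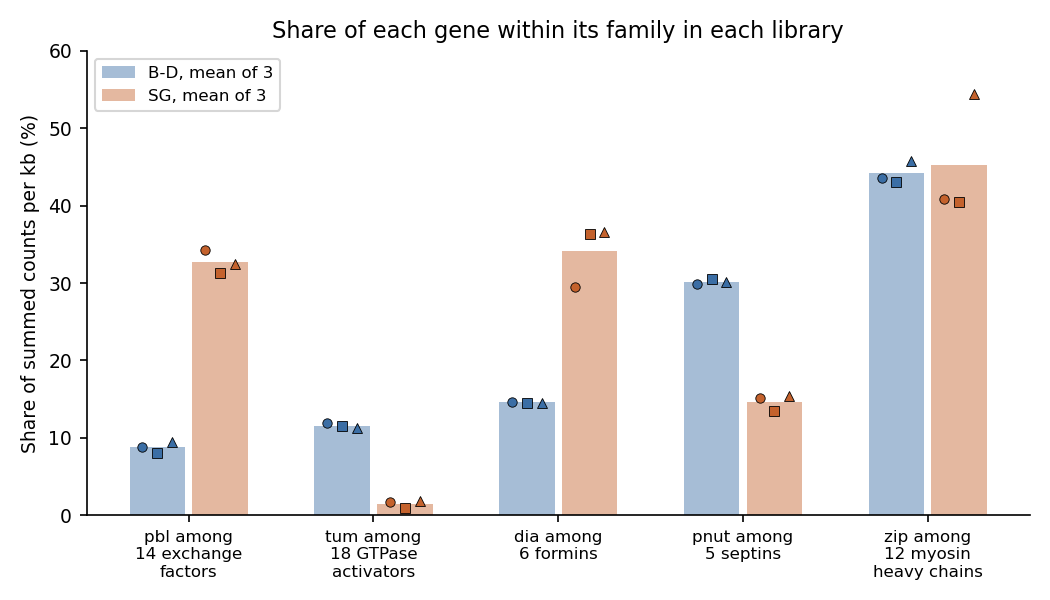
Share of each gene in the summed counts per kb of its family, in percent, with bars for the mean of 3 libraries in B-D (blue) and SG (orange) and symbols for the libraries. The share of pbl rises from 8.79% to 32.7% and that of dia from 14.6% to 34.1%, those of tum and pnut fall, and those of zip overlap.

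The levels of tum and pav, but less so of scra and pnut, differed among the SG libraries, as did the markers of the other tissue. As a percentage of the B-D mean, SG replicates 1, 2 and 3 held 10.9, 5.71 and 12.9 for tum and 11.6, 6.86 and 15.5 for pav. The median over the 12 neuron markers was 4.75, 1.27 and 7.77, that over the 12 imaginal disc markers 12.0, 9.11 and 16.1, and that over 10 mitotic regulators (cyclins, kinases, the phosphatases stg and twe, and fzy), all called lower in SG, 9.68, 4.73 and 13.8. Replicate 2 was lowest and replicate 3 highest in each of these, and the part of B-D tissue in the remaining tum and pav counts was not tested. For scra the values were 30.2, 29.2 and 34.0 and for pnut 40.4, 31.2 and 35.3, above the medians of all 3 of those lists in every library. With SG replicate 2 alone against B-D, where the lone library is assumed to vary like the B-D libraries, the same 5 genes were called higher and the same 4 lower, with tum at -4.11 and pav at -3.84 on the log2 scale.

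**Figure D5:**
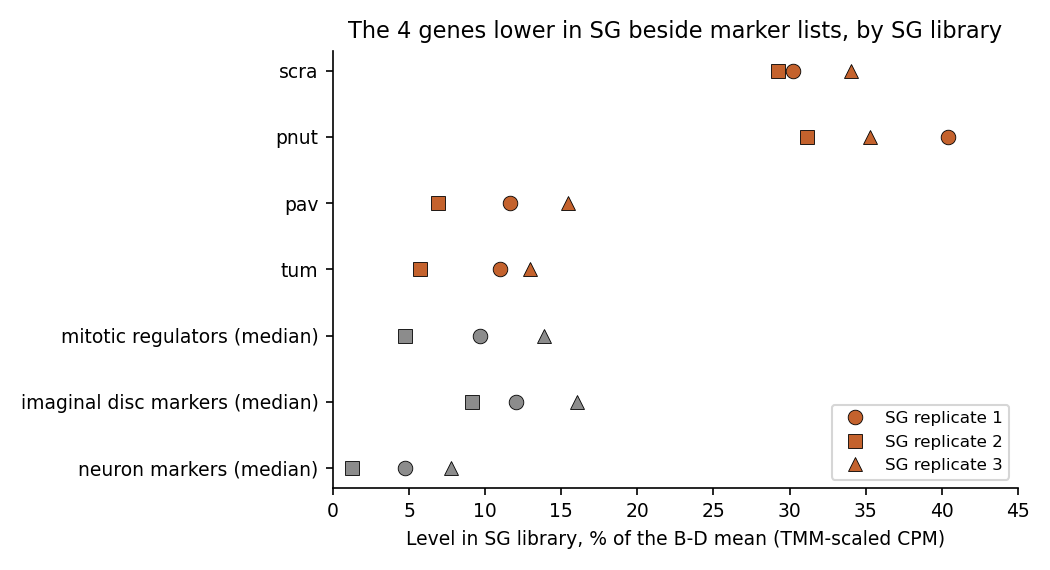
Level of tum, pav, scra and pnut in each SG library as a percentage of the B-D mean (orange), beside the median of the neuron, imaginal disc and mitotic regulator lists (grey), with a symbol for each replicate. For tum and pav SG replicate 2 lies lowest, at 5.71% and 6.86%, as it does for the 3 lists, and scra and pnut lie further right.

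Markers of further cell types were set beside the higher genes. Hemocyte markers summed to 2632 to 4233 CPM in SG and 1531 to 2215 CPM in B-D, with 3 of 11 called higher (srp, Col4a1 and vkg, all 3 also made by fat body) and 7 lower. Of 12 muscle markers, 9 were lower and 1 higher, with sums of 423 to 674 CPM in SG against 928 to 1039 CPM. Of 6 tracheal markers, 4 were lower and 1 higher. In SG replicates 1, 2 and 3 the fat body markers summed to 285771, 232919 and 192064 CPM, but their median, as a percentage of the B-D mean, was 6682, 5846 and 7998. The salivary gland markers summed to 19370, 35214 and 86091 CPM in the same libraries. The 5 higher genes had no common order among these libraries. For dia, sqh and zip, lowest in replicate 1 and highest in replicate 3, the order was that of the summed salivary gland markers. For pbl, lowest in replicate 2 and highest in replicate 3, it was that of the fat body median. Rok was lowest in replicate 3, as was the fat body sum, but its replicates 1 and 2 were both at 108 CPM and had no clear order. With 3 libraries few orders are possible, and the fat body sum and median differed in theirs. A shared order thus does not point to a tissue. The part of each tissue in these genes was not tested.

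Beside the counts in the lists that follow, 34.5% of all genes tested were called higher and 35.3% lower, and scaling by library size only moved each list toward lower calls. Where 0 members of a list were called higher on that scale by edgeR, between 0 and 1 of them had a higher value at an unadjusted p under 0.05. Of 23 other genes of cytokinesis, 14 were called lower, 7 higher and 2 neither, with a median log2 fold change of -0.68 against -0.03 over all genes. Under library size scaling 0 were called higher and 17 lower, while upper quartile factors left 4 called higher. Septin4 fell from 42.0 to 2.36 CPM (-4.15 ± 0.39 SE), and borr, which encodes Borealin of the chromosomal passenger complex (-3.85 ± 0.59), and polo, a mitotic kinase (-3.73 ± 0.40), fell by similar amounts. The largest rises were of fws, a subunit of the Golgi tethering complex COG, at 1.54 ± 0.12 (28.9 to 84.2 CPM), and of the membrane abscission genes ALiX (0.96 ± 0.10) and shrb (0.76 ± 0.08). Adjusted p was between 0.000101 and 0.00135 for these 6 genes. By library size only fws (0.45), ALiX (-0.13) and shrb (-0.33) were not called.

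Of 13 other exchange factor genes, 2 were called higher, 6 lower and 5 neither, with a median of -0.96, and by library size only 1 was higher and 11 lower. One of them, siz, acts on Arf proteins and was called neither. The 2 higher were Exn, an Ephexin, at 1.85 ± 0.12 (39.7 to 143 CPM), close to pbl, and GEFmeso at 1.01 ± 0.08, which was at -0.09 by library size only. RhoGEF4 (-3.68 ± 0.38) and RhoGEF3 (-2.23 ± 0.13) fell, as did sif, a Rac exchange factor of neurons, at -4.11 ± 0.61, but 71.9% of the exon bases of sif are shared with a gene of the same orientation and its count is therefore uncertain. Of 18 other genes of GTPase activating proteins and RhoGDI, an inhibitor of GTP exchange, 4 were higher, 7 lower and 7 neither (median -0.27), against 0 higher and 14 lower by library size only. RhoGAP92B (1.203 ± 0.10), cv-c (1.16 ± 0.14) and Graf (0.93 ± 0.10) rose, but none of the 3 was called by library size only (0.11, 0.07 and -0.17). The genes RhoGAP100F, a gene of synapse assembly (-4.50 ± 0.85), RhoGAP102A (-3.27 ± 0.48) and RhoGAP54D (-2.22 ± 0.38) fell. Among these 11 genes the highest adjusted p was 0.00338.

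Of 10 light chains, kinases and phosphatase subunits that act on myosin II, 4 were higher, 4 lower and 2 neither, against 2 higher and 7 lower by library size only. The gene Strn-Mlck, which encodes a myosin light chain kinase, rose from 16.5 to 286 CPM (4.11 ± 0.12, adjusted p = 2.76e-05) and was at 3.01 by library size only. Its exons cover 32768 bases over 10 transcripts. Per kb of exon the SG mean was 8.72 CPM, up from 0.505 for B-D. Counts per gene do not separate these transcripts, so whether those that encode the kinase rose was not tested. The phosphatase genes went both ways, with MYPT-75D, a targeting subunit, at 0.55 ± 0.11 (-0.54 by library size only) and flw, the catalytic subunit, at -0.58 ± 0.13, a call lost without SG replicate 1, at -0.496. The kinase genes Pak (-0.79 ± 0.08) and mbt (-1.003 ± 0.09), both effectors of Rac and Cdc42, were lower.

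Of 33 genes for actin assembly and turnover, 11 were higher, 10 lower and 12 neither (median 0.12), shares close to those over all genes, and by library size only 0 were higher and 24 lower. The formin gene Fhos (1.30 ± 0.14) and the Arp2/3 complex genes Arpc1 (0.96 ± 0.13) and Arpc5 (0.92 ± 0.10) had the largest rises, although by library size only they were not called (0.20, -0.14 and -0.18) and 13.4% of the exon bases of Arpc5 overlap a gene on the other strand. The largest falls were of nwk, which acts at synapses (-4.64 ± 0.69), DAAM (-3.77 ± 0.25) and the nucleator gene spir (-3.56 ± 0.29). Of 11 unconventional myosins, 5 were higher, 3 lower and 3 neither (median 0.45), against 0 higher and 6 lower by library size only. Those with the largest rises were Myo28B1 (1.65 ± 0.23), didum, a myosin V that carries vesicles (1.57 ± 0.10), and jar, a myosin VI (1.07 ± 0.12), none of them called by library size only (0.56, 0.48 and -0.03). The genes ninaC, a photoreceptor myosin (-4.96 ± 0.48), dachs, written d in the files (-3.23 ± 0.29), and Myo10A (-2.48 ± 0.25) were lower. Of the lower genes named, sif, RhoGAP100F and nwk act in neurons, whose 12 markers were lower in SG as well, and the part of those cells in the falls was not tested.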

How the data were processed

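The authors deposited raw counts per gene, whole numbers with no normalization. The submitters' notes name FastQC 0.11.5 for read quality, STAR 2.6.1a for alignment and featureCounts, run over exons, for counting. How strand and multiply mapping reads were handled is not given in the sources used here. Of 17493 genes, 17372 identifiers were found in the reference names, and 5 symbols turned into dates were restored by identifier. The authors' own comparison by DESeq2 1.14.1 (fold changes and p-values) was not used. Unused columns of per-sample values numbered 0.

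Counts were filtered with filterByExpr, scaled by TMM and tested with edgeR 4.0.16 in R 4.3.3, with tissue as the only term, standard errors from the quasi-likelihood fit and Benjamini-Hochberg adjustment over all genes tested. The code of the test was tried on simulated data in which few genes changed, equally in both directions. Those data lack the difference in composition between these tissues, so the trial does not check the scaling. Ratios and shares were tested with exact permutation tests in Python 3.11.15 with scipy 1.17.1, on counts with a prior count of 0.5 for ratios. The lengths are those of the count table, equal to the union of exons in BDGP6.54 for all 10 genes. Alternatives were other scalings, DESeq2 1.42.0, limma 3.58.1 (voom), other filters, a replicate block, a prior count of 5 for ratios, leaving out each library, and SG replicate 2 alone. Beside the 10 genes and Mlc-c, the text names from each list the 3 largest rises and falls among called genes with at least 5 CPM in a tissue. Other genes named are the actin genes Act42A and Act5C, the marker genes, the septins and the leading members of a family. These were chosen after their values were seen. The genes and lists were chosen with earlier results of these data known. No sequences were used here, and results on 1 further gene family are not reported here.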

Additional observations from a re-analysis of the deposited data

How the results depend on the processing

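Scaling by library size only left 1 of the 10 genes called higher (pbl) and 6 lower, with 1588 of all genes higher and 7111 lower. It reversed zip (-0.27), Rho1 (-0.71), Rok (-0.59), ALiX (-0.13), shrb (-0.33), GEFmeso (-0.088), Graf (-0.17), MYPT-75D (-0.54), Arpc1 (-0.14), Arpc5 (-0.18) and jar (-0.0292). Upper quartile scaling moved the median of all genes by -0.19, with 43.3% of calls higher against 49.5%, and Rok, at 0.32, was no longer called. Requiring at least 10 CPM in at least 3 libraries left 7596 genes tested and 2610 called lower. Rok also lost its call with DESeq2 size factors (0.496), the DESeq2 test (0.48), no filter (0.46) and the filter at 10 CPM (0.46). MYPT-75D lost its call with upper quartile scaling (0.37) and with no filter (0.497). Without any one replicate, 4 to 5 of the 10 genes were called higher and 4 lower, and of all genes 3805 to 4011 were higher and 3709 to 4154 lower. The calls of pbl, scra, pnut, tum and pav were the same under all 15 alternatives. The 10 ratios kept their direction with a prior count of 5 and without any one library.

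Between same-numbered libraries, deviations from the mean of the tissue had positive correlations of 0.33, 0.0769 and 0.222. Of 6 libraries, 4 correlated best with their own number. These values do not settle whether the numbers are pairs, and the main fit did not treat them as pairs. Both tissues came from the same larvae, but that a shared number marks shared larvae is not stated in the sources used here. With a replicate block, 3893 genes were called higher and 3985 lower, 5 and 4 of them among the 10. With 3 libraries a tissue, exact tests of ratios and shares cannot pass 0.05.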
